A study of Mus musculus with 6 samples.

Results

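A set of 10 genes that encode brakes on the kinase ERK were followed in liver tumours of mice: the dual-specificity phosphatase genes Dusp4, Dusp5, Dusp6 and Dusp7, the Sprouty genes Spry1, Spry2 and Spry4, and the SPRED genes Spred1, Spred2 and Spred3. They were taken by gene symbol from the deposited tables. All 10 of the 10 symbols were found among 39179 listed genes, and all 10 were among the 14365 genes with enough reads to be tested. The tumours had been raised in C57BL/6 wildtype mice by hydrodynamic injection, a fast, large-volume tail vein injection that carries DNA into hepatocytes. The DNA held transposons, mobile elements that insert their cargo into the genome, and both groups received Myc. The 3 Myc/NrasG12V samples also received NrasG12V, a mutant of Nras that stays active, and the 3 Myc/Akt1 samples received the kinase gene Akt1, which acts below PI3-kinase. The labels gave neither the promoters of the transposons nor the age of the mice, and untreated liver and tumours with Myc alone were not analysed here. Nor is it stated that each sample is a different mouse, and p-values therefore cover only the spread among these samples, which may be technical.

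ERK is the last kinase of the cascade that runs from Ras through RAF and MEK. Active ERK switches on genes whose products turn the cascade down again. The dual-specificity phosphatases of this set remove phosphate from ERK itself: DUSP6 and DUSP7 act in the cytoplasm and DUSP4 and DUSP5 in the nucleus. Sprouty proteins act near the receptors and Ras, and SPRED proteins bring neurofibromin, an inactivator of Ras, to the membrane. Transcript levels of several of these genes, above all Dusp6 and Spry4, are widely read as a gauge of signalling through the cascade.

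Upstream sequence is shown for Dusp5, Dusp6 and Spry2, which had the 3 largest differences between the groups among the 8 members with an entry in the RefSeq promoter table (GRCm38.p6). Dusp4 and Spry4 had no entry. Each run reads 5′ to 3′ on the strand of the gene and holds the bases before the RefSeq start that lie in no GENCODE M21 exon of the gene: chr19:53528895-53529108 on the plus strand for Dusp5 (214 bases), chr10:99262981-99263230 on the plus strand for Dusp6 (250 bases) and chr14:105896820-105897069 on the minus strand for Spry2 (250 bases). Capitals mark 2 neighbouring CArG boxes, the motif of serum response factor, and 1 match to TGACGT, the short form of the cAMP response element, in Dusp5, and 1 match to CGGAAG, a motif of ETS factors, in Dusp6.
Dusp5: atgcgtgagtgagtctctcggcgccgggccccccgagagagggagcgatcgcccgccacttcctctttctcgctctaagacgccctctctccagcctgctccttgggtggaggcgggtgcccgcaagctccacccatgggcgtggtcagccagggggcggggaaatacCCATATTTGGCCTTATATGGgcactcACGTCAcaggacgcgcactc
Dusp6: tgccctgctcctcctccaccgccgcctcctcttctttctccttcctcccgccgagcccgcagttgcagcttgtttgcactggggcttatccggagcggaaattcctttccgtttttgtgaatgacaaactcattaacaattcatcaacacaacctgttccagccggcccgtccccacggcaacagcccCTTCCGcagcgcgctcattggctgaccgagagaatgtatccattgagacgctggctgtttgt
Spry2: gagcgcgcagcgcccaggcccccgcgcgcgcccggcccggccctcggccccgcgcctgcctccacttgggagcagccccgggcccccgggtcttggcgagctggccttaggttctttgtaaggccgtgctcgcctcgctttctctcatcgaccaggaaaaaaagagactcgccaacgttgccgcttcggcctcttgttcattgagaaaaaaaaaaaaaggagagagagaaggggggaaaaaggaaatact
All motifs were searched on both strands of the 250 bases before the RefSeq start. A CArG box was found in Dusp5, 1 of the 8 members with an entry, and in 1.47% of 32851 such windows of the table. Its 2 boxes began 82 and 72 bases before the start. TGACGT was found in Dusp5 and Spred2 and in 6.47% of all windows, and TGACGTCA, the full element that contains it, in 0 of 8 members and 1.55% of windows. CGGAAG was found in Dusp6, Spred1 and Spred2 and in 13.6% of windows. TGANTCA, the motif of AP-1, and CACGTG, an E-box that MYC can bind, were found in 0 of 8 members, against 6.75% and 6.02% of windows. GGGCGG, the GC box, was found in 5 of 8 members and in 32.7% of windows. A match describes the letters and does not show that a factor binds there.

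Libraries held 17881282 to 27865094 reads. The lowest count of any member was 20 reads, for Dusp4 in Myc/Akt1 replicate 1, above the 3 reads that a count of 0 allows, which correspond to 0.108 to 0.168 CPM (the read count scaled to a common library total). The levels of Nras and Akt1 differed in the direction of the labels: Nras was at 171 ± 25.0 CPM in Myc/NrasG12V and 56.0 ± 4.51 CPM in Myc/Akt1 (SD, n = 3 each), and Akt1 at 65.1 ± 19.1 and 279.9 ± 33.8 CPM (SD, n = 3 each). Myc, delivered to both, was at 153 ± 29.4 and 154 ± 55.0 CPM (SD, n = 3 each), and without untreated liver its delivery could not be checked. The counts do not separate delivered from native copies, and the G12V mutation was not examined. All 6 hepatocyte markers were detected in every library, with a summed level of 142971 to 192313 CPM in Myc/NrasG12V and 40787 to 55589 CPM in Myc/Akt1. Myc/NrasG12V replicate 3 stood somewhat apart from its group, with correlations of 0.951 and 0.954 to the other two libraries against 0.983 between those (Pearson's r over tested genes).

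All 10 feedback genes were higher in Myc/NrasG12V than in Myc/Akt1. The difference was 42.5- and 30.1-fold for the nuclear phosphatases Dusp4 and Dusp5, 8.70-fold for Spry2, 5.47-fold for Dusp6 and between 2.38- and 3.60-fold for the other six. All 10 passed the test (limma, adjusted p under 0.05 over all genes), where 10% of the genes tested were called higher in Myc/NrasG12V and 39.5% in either direction. With edgeR, DESeq2 and limma with TMM factors all 10 were called as well, beside 16.6%, 19.2% and 16.2% of genes. For all 10 the lowest Myc/NrasG12V library lay above the highest Myc/Akt1 library, which held for 14.8% of the genes tested, and the reverse for 38.0%. Their summed level was 405, 435 and 432 CPM in Myc/NrasG12V replicates 1, 2 and 3 and 85.9, 79.1 and 76.7 CPM in Myc/Akt1. The median log2 difference of the 10 was 1.68, beside -0.26 over all 14365 genes tested. TMM factors, which rescale the libraries to a common middle, put it at 1.97 beside 0.00 over all genes, and moved the changed genes higher in Myc/NrasG12V from 1437 to 2331 and the changed genes higher in Myc/Akt1 from 4240 to 2565. Each fold is the quotient of the mean CPM of both groups, and log2 differences are limma estimates on the log2(CPM + 1) scale, positive where Myc/NrasG12V was higher, so they understate the change of genes of low level.

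**Figure D1:**
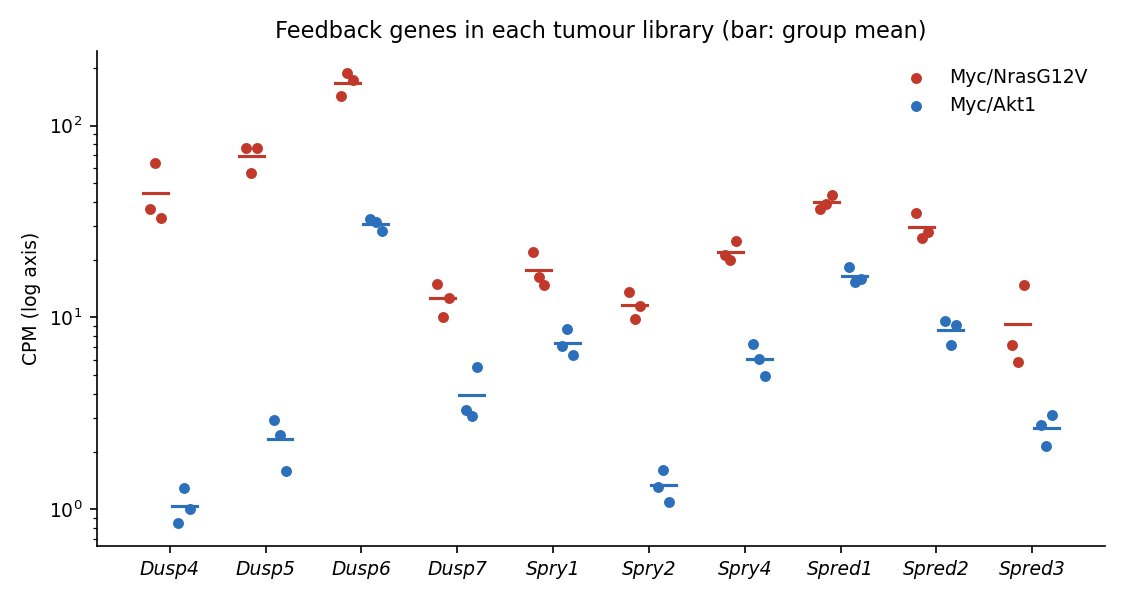
Level of each feedback gene in CPM (log axis) in the 3 Myc/NrasG12V libraries (red) and the 3 Myc/Akt1 libraries (blue), with a bar at each group mean. The red and blue points do not overlap for any of the 10 genes, and the gap is widest for Dusp4 and Dusp5.

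The nuclear phosphatases had the largest differences of the 10 genes. Dusp4 (ENSMUSG00000031530, chromosome 8, 34807297 to 34819894, GRCm38), which acts on ERK and also on JNK, was at 36.6, 64.0 and 32.9 CPM in Myc/NrasG12V replicates 1, 2 and 3 and at 0.848, 1.29 and 1.00 CPM in Myc/Akt1. Replicate 2 was high within Myc/NrasG12V, and the Myc/Akt1 libraries held only 20 to 36 reads each. The log2 difference was 4.42 (SE 0.29, 95% interval 3.77 to 5.07, limma adjusted p = 3.78e-05). Dusp5 (ENSMUSG00000034765, chromosome 19, 53529109 to 53542431), whose product is selective for ERK, was at 76.4, 56.6 and 76.3 CPM in Myc/NrasG12V and at 2.93, 2.44 and 1.59 CPM in Myc/Akt1. Its upstream sequence is the one above with the pair of CArG boxes, whose part in these levels was not tested. The lowest Myc/NrasG12V library lay far above the highest Myc/Akt1 library, with a log2 difference of 4.42 (SE 0.24, 95% interval 3.88 to 4.97, limma adjusted p = 2.13e-05). By log2 difference toward Myc/NrasG12V, Dusp5 ranked 27 and Dusp4 28 of 14365 genes tested.

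The cytoplasmic phosphatases were expressed in both groups. Dusp6 (ENSMUSG00000019960, chromosome 10, 99263231 to 99267489) was at 142, 187 and 173 CPM in Myc/NrasG12V and at 32.5, 31.3 and 28.1 CPM in Myc/Akt1. The Myc/Akt1 libraries were tightly grouped and none came near the Myc/NrasG12V range. The log2 difference was 2.41 (SE 0.17, 95% interval 2.02 to 2.79, limma adjusted p = 5.39e-05), and it ranked 214 of 14365. Dusp7 (ENSMUSG00000053716, chromosome 9, 106368632 to 106375724) was at 14.9, 10.1 and 12.6 CPM in Myc/NrasG12V and at 3.31, 3.05 and 5.54 CPM in Myc/Akt1. Replicate 3 was the highest of its Myc/Akt1 libraries, still below the lowest of Myc/NrasG12V. Its fold was 3.17, with a log2 difference of 1.47 (SE 0.27, 95% interval 0.86 to 2.08, limma adjusted p = 0.00333).

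Among the Sprouty genes Spry2 differed most. Spry2 (ENSMUSG00000022114, chromosome 14, 105891947 to 105896819) was at 13.7, 9.87 and 11.5 CPM in Myc/NrasG12V and at 1.32, 1.61 and 1.09 CPM in Myc/Akt1. The groups were far apart, with a log2 difference of 2.43 (SE 0.23, 95% interval 1.92 to 2.94, limma adjusted p = 1.63e-04). Spry4 (ENSMUSG00000024427, chromosome 18, 38586247 to 38601415) was at 21.1, 19.97 and 24.9 CPM against 7.30, 6.06 and 4.95 CPM. Its coefficient of variation was 11.7% in Myc/NrasG12V and 19.2% in Myc/Akt1. It was 3.60-fold higher in Myc/NrasG12V, a log2 difference of 1.70 (SE 0.22, 95% interval 1.203 to 2.20, limma adjusted p = 6.47e-04). Spry1 (ENSMUSG00000037211, chromosome 3, 37639947 to 37644598) was at 21.9, 16.2 and 14.8 CPM against 7.08, 8.72 and 6.41 CPM. It had the smallest difference of the 10, 2.38-fold or 1.14 on the log2 scale (SE 0.23, 95% interval 0.61 to 1.67, limma adjusted p = 0.00551).

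The SPRED genes differed by less than the nuclear phosphatases. Spred1 (ENSMUSG00000027351, chromosome 2, 117121374 to 117182279), the SPRED gene whose loss causes Legius syndrome in people, was at 36.7, 39.2 and 43.4 CPM in Myc/NrasG12V and at 18.2, 15.3 and 15.8 CPM in Myc/Akt1. It had the smallest relative spread of the 10 in Myc/NrasG12V, a coefficient of variation of 8.54%, and a log2 difference of 1.22 (SE 0.17, 95% interval 0.83 to 1.62, limma adjusted p = 0.00105). Spred2 (ENSMUSG00000045671, chromosome 11, 19924375 to 20024026) was at 34.9, 26.03 and 27.8 CPM against 9.59, 7.18 and 9.09 CPM. Every Myc/NrasG12V library was well above every Myc/Akt1 library, with a fold of 3.43 and a log2 difference of 1.67 (SE 0.21, 95% interval 1.19 to 2.15, limma adjusted p = 6.01e-04). Spred3 (ENSMUSG00000037239, chromosome 7, 29158829 to 29170411) was at 7.16, 5.83 and 14.7 CPM against 2.76, 2.15 and 3.09 CPM. Replicate 3 set it apart from the others: its coefficient of variation in Myc/NrasG12V was 51.8%, and the fold was 3.46 with that library and 2.44 without it. Its log2 difference was 1.39 (SE 0.33, 95% interval 0.64 to 2.14, limma adjusted p = 0.0104).

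**Figure D2:**
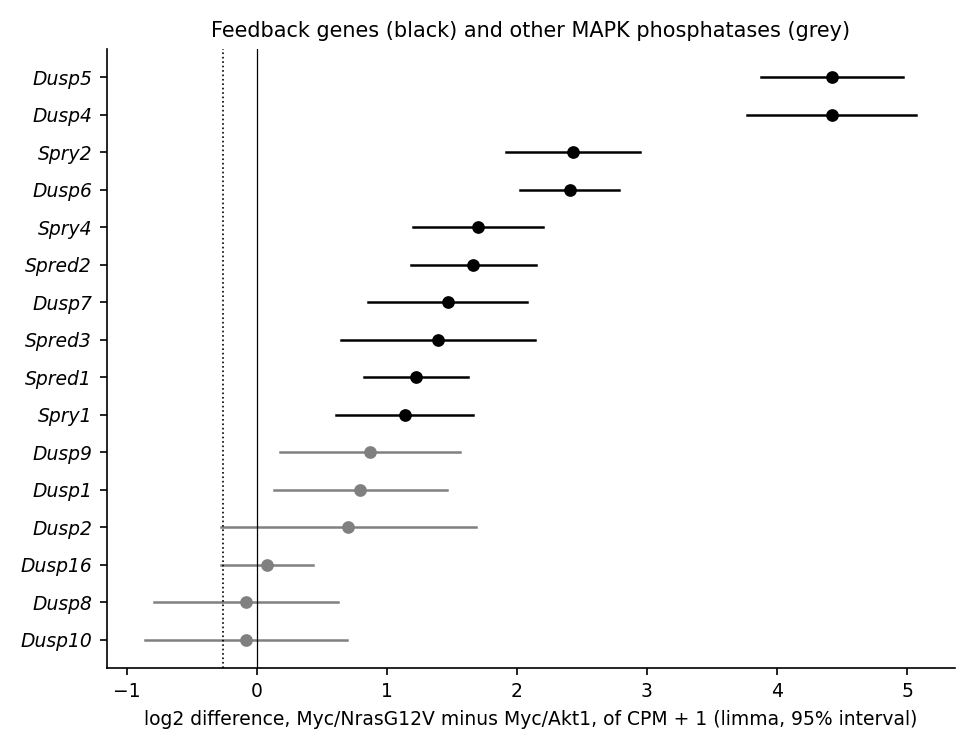
Limma log2 difference of CPM + 1, Myc/NrasG12V minus Myc/Akt1, with its 95% interval for the 10 feedback genes (black) and the 6 tested genes of the other MAPK phosphatases (grey). The solid line is 0 and the dotted line the median of all genes tested, -0.26. All black intervals lie above 0, from 1.14 for Spry1 to 4.42 for Dusp4 and Dusp5, and 4 of the 6 grey intervals span 0.

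No library was uniformly high or low within its group over the 10 genes. Pearson's r between pairs of members on log2(CPM + 1) ran from 0.74 to 1.00 over the 6 libraries, which share that step. Myc/NrasG12V replicate 1 was the highest of its group for 5 members and the lowest for 2, replicate 2 for 2 and 6, and replicate 3 for 3 and 2. In Myc/Akt1 replicate 1 was the highest for 5 members and the lowest for 1, replicate 2 for 3 and 4, and replicate 3 for 2 and 5. Leaving out any 1 of the 6 libraries moved no member's fold by more than 1.5 times. The fold of Dusp4 ran from 33.2 to 48.1, that of Dusp5 from 26.002 to 34.6 and that of Dusp6 from 5.14 to 5.88.

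Levels of different genes were compared per kilobase of exon (CPM divided by the length of the merged GENCODE M21 exons). Dusp6 was the most abundant member in both groups, at 53.5 ± 7.36 CPM per kb in Myc/NrasG12V and 9.78 ± 0.724 CPM per kb in Myc/Akt1 (SD, n = 3 each). In Myc/NrasG12V, Dusp5 followed at 28.2 ± 4.63 and Dusp4 at 16.2 ± 6.19 CPM per kb (SD, n = 3 each), with ranges that overlapped each other. Spred2 (6.40), Spry1 (6.06), Spred1 (5.86), Spry2 (5.59), Spry4 (4.62) and Dusp7 (3.74 CPM per kb) came next, each overlapping its neighbour in that order, and Spred3 was last at 1.49 CPM per kb, apart from Dusp7. The order in Myc/Akt1 was different. There Spry1 and Spred1, at 2.55 and 2.43 CPM per kb, followed Dusp6 with overlapping ranges, Spred2 (1.87) and Spry4 (1.28) came after them, and Dusp7 (1.18), Dusp5 (0.938), Spry2 (0.642), Spred3 (0.429) and Dusp4 (0.382 CPM per kb) closed the list. In that order the ranges of Spred1 and Spred2, Spred2 and Spry4, and Spry2 and Spred3 lay apart, and those of the other neighbours after Dusp6 overlapped. By rank Dusp4 was thus 3 of 10 in Myc/NrasG12V and 10 of 10 in Myc/Akt1. With the longest transcript in place of merged exons, Spry1 and Spred1 traded places in both groups and Spred3 passed Spry2 in Myc/Akt1, while Dusp6 stayed first.

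The make-up of the phosphatase group differed between the tumours. Of the summed CPM per kb of the 4 phosphatase genes, Dusp6 took 48.2, 54.8 and 54.2% in Myc/NrasG12V and 80.7, 80.8 and 77.2% in Myc/Akt1. Dusp5 took 32.9, 21.0 and 30.3% against 9.20, 7.99 and 5.52%, and Dusp4 took 14.2, 21.4 and 11.8% against 2.41, 3.82 and 3.13%. Dusp4 and Dusp5 thus each had a larger share in every Myc/NrasG12V library than in any Myc/Akt1 library. The reverse held for Dusp6 and for Dusp7, while Dusp6 had the largest share in all libraries. Among the Sprouty genes Spry2 took 34.2 ± 1.45% in Myc/NrasG12V and 14.3 ± 0.896% in Myc/Akt1, Spry1 37.1 ± 4.42% and 57.0 ± 3.49%, and Spry4 28.7 ± 4.57% and 28.7 ± 4.15% (SD, n = 3 each). The shares of Spry2 and Spry1 did not overlap between the groups, and those of Spry4 did. Among the SPRED genes Spred1 took 42.8 ± 4.25% and 51.5 ± 2.85% (SD, n = 3 each) without overlap, and the shares of Spred2 and Spred3 overlapped. With 3 against 3 libraries a two-sided exact permutation test of a share cannot give a p below 0.1, so these shares are given as a description. A share of a library's own reads does not depend on the scaling between libraries.

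**Figure D3:**
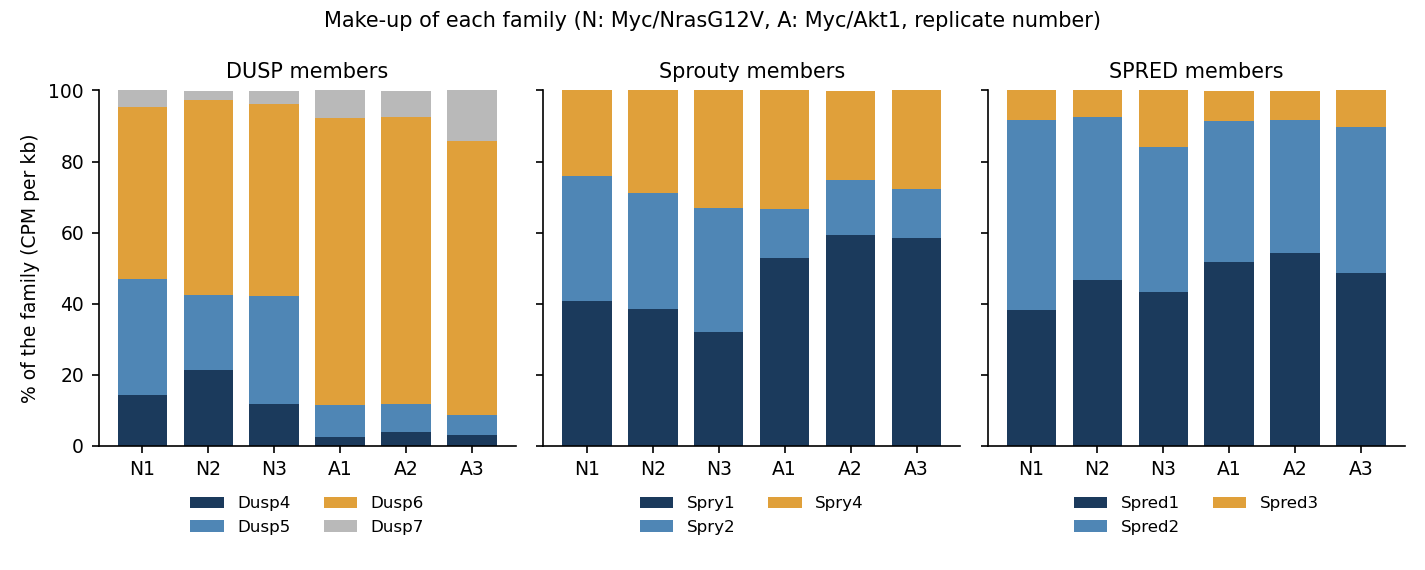
Share of each gene in the summed CPM per kb of its family, in percent, for each library (N1 to N3, Myc/NrasG12V replicates; A1 to A3, Myc/Akt1 replicates). Dusp6 makes up 77.2 to 80.8% of the phosphatase bars in Myc/Akt1 and 48.2 to 54.8% in Myc/NrasG12V, where Dusp4 and Dusp5 fill the difference.

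Of the kinases that these phosphatases act on, Mapk3, which encodes ERK1, was at 42.4, 49.9 and 36.5 CPM in Myc/NrasG12V replicates 1, 2 and 3 and at 70.3, 59.9 and 69.0 CPM in Myc/Akt1. Its groups did not overlap, in the direction opposite to the feedback genes (log2 difference -0.63, SE 0.18, limma adjusted p = 0.0214). Its call ended with each of 3 other scaling factors, with edgeR, with DESeq2 and without albumin in the library total. It also ended when replicate 1 of either group or Myc/Akt1 replicate 3 was left out.

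The remaining MAPK phosphatase genes and Spry3 formed a separate list, chosen like the members with earlier results of these data known. Of its 7 genes, 6 were tested, 1 was called toward Myc/NrasG12V and 0 toward Myc/Akt1, and 0 of the 6 had groups that did not overlap. Their median log2 difference was 0.39. Dusp9, another cytoplasmic ERK phosphatase, was at 5.68, 3.63 and 7.21 CPM in Myc/NrasG12V and at 2.21, 3.77 and 1.73 CPM in Myc/Akt1, with overlapping groups and a limma adjusted p of 0.0499 (log2 difference 0.87). Its call ended with no filter on low values, with a pseudocount of 0.1 CPM and when replicate 1 or 3 of either group was left out, and the list's count was then 1 without Myc/NrasG12V replicate 1 and 0 in the other cases. With each of 3 other scaling factors, edgeR or albumin left out of the library total the list's count was 2, and with DESeq2 it was 3. Dusp1, a nuclear phosphatase induced by many stresses, was at 50.2, 117 and 82.6 CPM against 42.5, 53.3 and 39.9 CPM (log2 difference 0.80, limma adjusted p = 0.0579). It was called with each of 3 other scaling factors, with edgeR, with DESeq2, with albumin left out of the library total and without Myc/NrasG12V replicate 1. Dusp2, a nuclear phosphatase of immune cells, was at 2.10, 1.06 and 6.71 CPM against 1.27, 1.51 and 1.00 CPM, with a 95% interval of the log2 difference from -0.28 to 1.68, and was called by DESeq2 alone. Its fold was 2.61, or 1.25 without Myc/NrasG12V replicate 3. The genes of the JNK and p38 phosphatases had log2 differences of -0.08 for Dusp8 (95% interval -0.79 to 0.63), -0.08 for Dusp10 (-0.86 to 0.70) and 0.08 for Dusp16 (-0.28 to 0.43), and the signs of Dusp8 and Dusp10 turned with other scalings. Spry3 had 0 reads in all 6 libraries. The counts are read against 10% of all genes called toward Myc/NrasG12V and 29.5% toward Myc/Akt1.

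The rest of the cascade was compared from lists of genes. The counts here and in the next paragraph stand beside 10% of all genes tested called toward Myc/NrasG12V and 29.5% toward Myc/Akt1 (limma). Of 12 other genes that ERK signalling is known to raise, 8 were called toward Myc/NrasG12V and 0 toward Myc/Akt1, with a median log2 difference of 1.34. The list included Myc, which was delivered to both groups and was not called. Ier3, an early response gene, was at 47.2, 49.5 and 95.9 CPM against 2.55, 2.30 and 1.91 CPM, and the transcription factor genes Egr1 and Etv4 were 17.0- and 36.0-fold higher. The fold of Egr1 was 27.2 without Myc/Akt1 replicate 2, and that of Etv4 was 21.8 without Myc/NrasG12V replicate 3. Without Myc/NrasG12V replicate 3, 1 gene of the list was called higher in Myc/Akt1. Of 22 cascade genes from receptor to kinase, 2 were called higher in Myc/NrasG12V, Nras itself and Egfr (6.63-fold). Another 7 were called higher in Myc/Akt1, among them the adaptor gene Grb2 (1.90-fold). Those 7 became 2 with each of 3 other scaling factors, edgeR or DESeq2, 3 when Myc/NrasG12V replicate 1 was left out or Myc/Akt1 replicate 1 or 2, and 4 without Myc/NrasG12V replicate 2. Of 18 partner and inhibitor genes, 2 were called for Myc/NrasG12V and 3 for Myc/Akt1, or 5 in Myc/Akt1 without Myc/NrasG12V replicate 3. The 2 became 4 with TMM factors or those of DESeq2 and 6 when scaled by the upper quartile, and edgeR called 4 and DESeq2 5.

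Among those partners, Pebp1, which encodes the RAF inhibitor RKIP, was 3.16-fold higher in Myc/Akt1, Cav1, of caveolae, was 5.34-fold higher there (9.499-fold without Myc/NrasG12V replicate 2), and Rasa3, a GTPase-activating protein for Ras, was 1.99-fold higher in Myc/NrasG12V. Nf1, the partner of the SPRED proteins, was at 44.0 ± 5.06 and 39.2 ± 5.70 CPM (SD, n = 3 each) and was not called (limma adjusted p = 0.489). Errfi1, a feedback inhibitor of the EGF receptor, was at 1445 ± 73.7 and 1506 ± 56.2 CPM (SD, n = 3 each; limma adjusted p = 0.849). Nf1, Errfi1, Dusp19 and Mapk3 are named after their values were seen. Of the atypical dual-specificity phosphatase genes, 9 of 15 were tested, with 0 calls toward Myc/NrasG12V and 4 toward Myc/Akt1, which by increasing p were Dusp22 (1.95-fold), Dusp3 (1.45-fold), Dusp12 (1.62-fold) and Dusp19 (1.85-fold). Those 4 became 2 with no filter on low values, 1 with edgeR, with DESeq2 or with albumin left out of the library total, 0 with each of 3 other scaling factors and without Myc/Akt1 replicate 1, and 1 when replicate 2 of either group or Myc/NrasG12V replicate 1 was left out. Of 12 other MAP kinase genes, 2 were called toward Myc/NrasG12V and 3 toward Myc/Akt1, Map2k3 (1.76-fold), Mapk9 (1.51-fold) and Mapk14 (1.59-fold). The 2 became 1 without Myc/NrasG12V replicate 1 or 2 and 0 when Myc/NrasG12V replicate 3 was left out or Myc/Akt1 replicate 1 or 2. With no filter they became 0 and with DESeq2 4. The 3 became 1, 1 and 0 with TMM, median-of-ratios and upper-quartile scaling, 0 with edgeR, 1 with DESeq2, 1 when replicate 2 of either group or Myc/Akt1 replicate 1 was left out, and 5 without Myc/NrasG12V replicate 3.

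**Figure D4:**
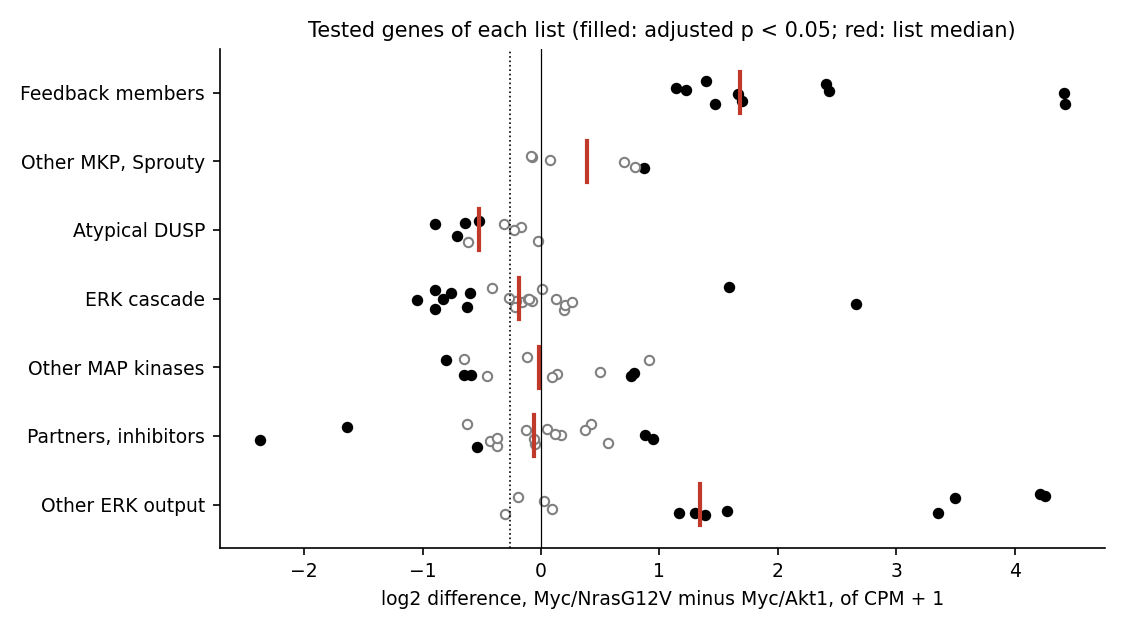
Log2 difference of CPM + 1, Myc/NrasG12V minus Myc/Akt1, for each tested gene of the 7 lists (filled, limma adjusted p under 0.05; open, not called), with the list median in red. The dotted line is the median of all genes tested, -0.26. All 10 feedback genes are filled and lie between 1.14 and 4.42, and the list medians of the atypical phosphatases and of the cascade itself are -0.52 and -0.18.

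The genes whose pattern was most like that of Dusp6 were Kctd12, Nucb2, Cdh17, Fgl2 and Tspan8, with Pearson's r of 0.997 to 0.999 on log2(CPM + 1) over the 6 libraries, which share the step between the groups. Kctd12 was at 43.2, 57.5 and 52.8 CPM in Myc/NrasG12V and at 7.30, 8.003 and 6.68 CPM in Myc/Akt1. These 5 genes were picked for their correlation with Dusp6 in these same libraries, so a shared order of replicates is no separate finding. Like Dusp6, they were lower in Myc/NrasG12V replicate 1 than in replicate 2. Unlike Dusp6, Tspan8 was slightly lower in replicate 3 than in replicate 1 (347 against 351 CPM). Cdh17, an intestinal cadherin, was at 61.2 to 90.0 CPM in Myc/NrasG12V and had 1, 2 and 0 reads in the Myc/Akt1 libraries.

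Cell type markers also differed between the groups. Their calls are read against 10% of all genes tested called higher in Myc/NrasG12V and 29.5% called higher in Myc/Akt1 (limma). Of the 6 hepatocyte markers, 4 were called higher in Myc/NrasG12V, with the sums given above. Albumin (Alb), which made up most of those sums, was 3.30-fold higher in Myc/NrasG12V without overlap. It was not called (log2 difference 1.72, SE 0.95, limma adjusted p = 0.184). Ttr, which encodes transthyretin, was 1.90-fold higher in Myc/Akt1 without overlap and was not called (limma adjusted p = 0.0785). The 6 neutrophil markers summed to 25.7, 60.7 and 142 CPM in Myc/NrasG12V and 3.68 to 4.58 CPM in Myc/Akt1, with 5 of 5 tested genes called higher in Myc/NrasG12V and Ly6g at 0 reads in 1 Myc/Akt1 library. The 6 erythroid markers summed to 273, 982 and 1695 CPM against 47.0 to 92.8 CPM, with 5 of 6 called and Slc4a1 at 0 reads in 2 Myc/Akt1 libraries. Of 6 T and NK cell markers 3 were higher and 1 lower in Myc/NrasG12V (10.3 to 28.0 against 5.30 to 7.21 CPM summed), and of 7 endothelial markers 3 were higher and 1 lower (151 to 237 against 172 to 215 CPM). Of each list, 1 gene was higher among 6 macrophage (192 to 349 against 158 to 209 CPM), 7 stellate (445 to 519 against 359.9 to 599 CPM) and 5 tested cholangiocyte markers (424 to 968 against 128 to 262 CPM), and 0 of 2 tested B cell markers were called (1.79 to 4.44 against 2.00 to 2.80 CPM). Over the Myc/NrasG12V libraries the neutrophil and erythroid sums were lowest in replicate 1 and highest in replicate 3. The 10 feedback genes summed to 405, 435 and 432 CPM in replicates 1, 2 and 3. Taken singly, 5 of them were highest in replicate 1, 2 in replicate 2 and 3 in replicate 3. In bulk tumour samples, more cells of a type and more RNA per cell cannot be told apart, and the part of any cell type in the differences of the 10 genes was not tested.

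Exons of other annotated genes overlap 3 of the 10 on the opposite strand: an antisense gene covers 22.1% of the exon bases of Dusp5, an unclassified gene 24.4% of those of Spry1, and Ggn 3.25% of those of Spred3. Ggn had 3 to 5 reads in each library. The genes opposite Dusp5 and Spry1 were not among the listed genes, so they have no counts here. The libraries were stranded, but the strand setting of the counting was not given in the sources used here, so antisense reads could be included in these 3 genes.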

How the data were processed

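Poly(A) RNA of 6 tumour samples was sequenced as stranded single-end libraries, per the labels' protocols. The authors deposited 1 value per gene and library in CPM, in a column named reads. Tools listed in the submitters' processing notes are Subread 1.6.3, STAR 2.6.1c and edgeR 3.22.5, with GRCm38 as the build. How strand and multi-mapped reads were treated, and which annotation was used, is not given in the sources used here. Every CPM value was a whole multiple of what 1 read is worth in its library, with a largest deviation of 1.63e-04 read, and whole reads were recovered.

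Genes passing filterByExpr of edgeR (0.457 CPM in 3 libraries and 15 reads in total) were compared with limma 3.58.1 (trend, two-sided) on log2(CPM + 1) without covariates, in R 4.3.3, with Benjamini-Hochberg adjustment over 14365 genes. Calls had an adjusted p under 0.05. Alternatives were other scaling factors, filters and pseudocounts, edgeR 4.0.16 and DESeq2 1.42.0 on the recovered reads (edgeR called 4893 genes and DESeq2 5543), a replicate block, and leaving out each library. Scaling to the library total without albumin was added after seeing the data.

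Coordinates and exon lengths are from GENCODE M21 (GRCm38), which held 96.0% of the listed gene identifiers. Promoter sequences are from RefSeq (GRCm38.p6). The members and the lists were chosen with earlier results of these data known. Beside the members, the genes named were all of the other MAPK phosphatase list, the 3 of lowest p in each other pathway list, Nras, Akt1, Myc, and the 5 most like Dusp6 with a mean of at least 5 CPM, leaving out predicted symbols. Mapk3, Nf1, Errfi1, Dusp19 and the markers and neighbours named fall outside this rule. Some results of the listed genes are not reported here.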

Additional observations from a re-analysis of the deposited data

How the results depend on the processing

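All 10 feedback genes were called higher in Myc/NrasG12V under each of 17 alternatives, with 0 called lower, and each kept its direction in all 17. The lowest log2 differences came with a pseudocount of 5 CPM, the highest with DESeq2. The highest adjusted p was 0.0446, for Spred3 without Myc/Akt1 replicate 2. The member median was 1.97 with TMM factors, beside 0.00 over all genes. The changed genes higher in Myc/NrasG12V numbered 1437, or 2331 (TMM factors), 2366 (median of ratios), 2544 (upper quartile), 2381 with edgeR and 2752 with DESeq2. The changed genes higher in Myc/Akt1 numbered 4240, or 2565, 2515, 2343, 2512 and 2791 in that order. Leaving out 1 library gave 966 to 1502 and 2890 to 4796 genes. Without Myc/Akt1 replicate 1, 3856 genes were called in all. Per kb of the longest transcript, Dusp6 was at 11.0 CPM in Myc/Akt1, Spred1 at 6.61 in Myc/NrasG12V and 2.74 in Myc/Akt1, and Spred3 at 2.28 and 0.658. In that order of settings the log2 difference of Dusp8 turned to 0.22, 0.22, 0.27, 0.29 and 0.30, and with albumin left out of the library total to 0.033. It ran from -0.29 to 0.22 without single libraries. The log2 difference of Dusp10 turned to 0.20, 0.21, 0.25, 0.36, 0.37 and 0.027 in the same order, and ran from -0.43 to 0.23 without single libraries. The log2 difference of Myc ran from -0.18 to 0.30 without single libraries. The cause of these shifts was not tested. Of 476 values of 28 other named genes, 391 kept direction and call, 56 lost the call, 9 gained it and 20 turned.

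Replicate numbers were shared by the groups in the labels, but the deviations of same-numbered libraries correlated at -0.08, 0.11 and 0.08, so the numbers were not taken to pair the samples. With the replicate block 5530 genes were called, against 5677 without it, and all 10 feedback genes remained called. With the block Dusp1 gained its call, Dusp9 lost it, and the atypical phosphatase genes called went from 4 to 1. By these deviations Myc/NrasG12V replicates 2 and 3 correlated best with their own number and replicate 1 with Myc/Akt1 replicate 2, as a hint from the data only. Depth limits most the folds of Dusp4, with 20 to 36 reads in the Myc/Akt1 libraries.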

Other observations

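The genes next to the 10 feedback genes on the chromosome differed in both directions. The nearest tested gene on each side, by start position in GENCODE M21, gave 20 neighbours, of which 4 were called higher in Myc/NrasG12V, 7 higher in Myc/Akt1 and 9 not called (limma adjusted p under 0.05), beside 10% and 29.5% of all genes tested. Beside Spry4, Ndfip1, an adaptor of ubiquitin ligases, was at 50.2 against 134 CPM and the growth factor gene Fgf1 at 19.6 against 48.0 CPM, both higher in Myc/Akt1. Beside Dusp7, the centriole gene Poc1a was at 1.96 against 11.7 CPM, and beside Spred1, Fam98b at 11.1 against 29.2 CPM. Tnks, 6566 bases from Dusp4, was at 16.8 against 21.3 CPM and was not called. The 4 neighbours higher in Myc/NrasG12V, Mirt1, Gm5148, Gm10076 and Rpl27a-ps2, had means of 4.86 CPM or less in that group. This comparison was chosen after the values of the 10 genes were known.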
